A study of Mus musculus with 6 samples.

Results

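Fatty acids are made from glucose carbon by a short chain of cytosolic enzymes, and 10 genes of that chain and its control were followed here in mouse adipose tissue: Acly, Acaca, Acacb, Fasn, Me1, Thrsp, Mid1ip1, Srebf1, Mlxipl and Pnpla3. They were taken by symbol from an expression table of 19928 genes, and all 10 were found and all passed the minimum level used for testing. Of these, 9 belong to the set through their known role, although the members were chosen with earlier results of these data known. Pnpla3 was chosen by its own FPKM values, which were lower in the treated samples. The Pnpla3 difference between the groups is therefore a description and carries no test.

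The tissue came from KM mice, an outbred stock. The control group had 3 samples whose diet label reads control. The RAS group had 3 samples from mice whose diet was supplemented with radix Angelica sinensis (abbreviated RAS), a medicinal root, at a dose of 10.00 g per kg body weight. The title of the series speaks of obesity induced by a high-fat diet and of genes behind an effect of the root against it, and the sample labels do not say which mice had the high-fat diet. No genotype, transgene, age, sex, fat depot, fasting state or treatment length is given in the sources used here, nor the number of animals behind each sample, so p-values reflect only how far these samples vary.

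As background, ATP citrate lyase (Acly) splits cytosolic citrate into acetyl-CoA, and acetyl-CoA carboxylase turns that into malonyl-CoA, the committed step. Fatty acid synthase (Fasn) then builds palmitate with NADPH, part of which comes from malic enzyme (Me1). Insulin and feeding switch these genes on through the transcription factors SREBP-1 (Srebf1) and ChREBP (Mlxipl), so the pathway is known for following the nutritional state of fat cells and liver. Pnpla3 (adiponutrin), a lipid droplet protein with acyltransferase and lipase activity, is also known as a feeding-induced target of these factors in fat.

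RefSeq promoter windows (GRCm38.p6) were found for all 10 genes, 14 windows in all because Mlxipl, Me1 and Srebf1 have several RefSeq starts. In another annotation, GENCODE, 3 plus-strand genes begin well upstream of the RefSeq start used: Acacb at 114146535, Mid1ip1 at 10715013 and Acaca at 84129672. Their windows may therefore stand at alternative or internal starts. The 250 bases before the start are printed for the 3 genes whose ranges were apart between the groups (Pnpla3, Mid1ip1 and Acacb), for Fasn as the gene at the centre of the pathway, and for the upstream start of Mlxipl, which held the one E-box among the 14 windows. Capitals mark matches, on either strand, to the CCAAT box CCAAT, the GC box GGGCGG, the E-box CACGTG or the SRE-like motif TCACNCCAC, all searched without mismatches.
Pnpla3, chr15:84167566-84167815, plus strand: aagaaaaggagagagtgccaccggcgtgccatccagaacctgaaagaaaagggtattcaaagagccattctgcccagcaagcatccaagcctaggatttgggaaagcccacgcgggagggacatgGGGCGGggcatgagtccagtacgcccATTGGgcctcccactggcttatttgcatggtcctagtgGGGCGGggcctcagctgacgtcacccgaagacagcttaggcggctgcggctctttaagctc
Fasn, chr11:120824548-120824797, minus strand: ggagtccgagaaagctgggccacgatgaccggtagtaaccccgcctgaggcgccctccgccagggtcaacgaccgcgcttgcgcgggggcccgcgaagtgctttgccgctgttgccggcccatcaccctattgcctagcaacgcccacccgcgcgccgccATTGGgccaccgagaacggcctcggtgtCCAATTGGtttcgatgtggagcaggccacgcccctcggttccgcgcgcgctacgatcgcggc
Mid1ip1, chrX:10717115-10717364, plus strand: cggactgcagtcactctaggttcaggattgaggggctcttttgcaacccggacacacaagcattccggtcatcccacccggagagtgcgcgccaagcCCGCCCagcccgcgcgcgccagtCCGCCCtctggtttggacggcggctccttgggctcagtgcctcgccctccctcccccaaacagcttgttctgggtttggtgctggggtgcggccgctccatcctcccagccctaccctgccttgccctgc
Acacb, chr5:114165268-114165517, plus strand: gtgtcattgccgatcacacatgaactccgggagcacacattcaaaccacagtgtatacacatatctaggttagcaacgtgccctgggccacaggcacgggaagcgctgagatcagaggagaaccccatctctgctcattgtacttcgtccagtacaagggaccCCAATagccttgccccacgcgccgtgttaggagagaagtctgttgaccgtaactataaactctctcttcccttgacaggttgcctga
Mlxipl, chr5:135089640-135089889, plus strand: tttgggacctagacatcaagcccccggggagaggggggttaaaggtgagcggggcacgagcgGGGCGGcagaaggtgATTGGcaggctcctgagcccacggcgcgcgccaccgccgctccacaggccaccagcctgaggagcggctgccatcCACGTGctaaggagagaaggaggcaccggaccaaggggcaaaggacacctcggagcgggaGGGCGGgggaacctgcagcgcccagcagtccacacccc
In the Fasn sequence, the run of 8 capitals is a CCAAT box overlapping one on the other strand.

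Over the full windows of 300 bases, which also take in the 50 bases after the start, a CCAAT box stood in 9 of the 14 windows and in 37.4% of 32851 mouse windows. A GC box stood in 7 of 14 and in 35.7% of all. The E-box stood in 1 of 14 and in 7.15% of all, and the SRE-like motif in 1 of 14, the downstream start of Mlxipl, and in 1.24% of all. The DR4 motif of nuclear receptors was in 0 of 14 and in 0.0152% of all. These counts describe letters in the windows and not bound sites.

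Each library held 14.4 to 15.7 M assigned reads. Fat cell markers were abundant in all of them: Adipoq lay at 2357 to 3460 FPKM and Fabp4 at 20821 to 45586 FPKM. FPKM is the number of fragments scaled by transcript length and library size, so it can be compared between genes. Of 10 mature adipocyte markers all were in the table, with a summed level of 36000 to 42794 FPKM in control and 46409 to 65741 FPKM in RAS. Fabp4 made up most of that sum and of its difference (23034 ± 2999 and 37958 ± 7713 FPKM). The list's median log2 difference was 0.10, and Lep (496 ± 104 and 316 ± 21.0 FPKM, ranges apart), Plin1 (759 ± 137 and 689 ± 168 FPKM) and Retn (2913 ± 971 and 2699 ± 123.1 FPKM) had lower means with RAS. Ranges were apart on the higher side for 2 of the 10, Fabp4 and Cidec (5.42% of all genes), and on the lower side for 1, Lep (12.5%). In bulk tissue, fewer cells of a type and less RNA per cell cannot be told apart. Control 1, control 3 and RAS 3 each stood apart from the other libraries in marker levels that are given beside the results. The members' differences are therefore given with their lowest and highest value when each of the 6 libraries was left out in turn.

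The members spanned a wide range of levels. Thrsp and Fasn were the highest in each of the 6 libraries, in that order, and averaged 1087 and 670 FPKM over the 6. Me1 (174 FPKM), Acly (136), Pnpla3 (100.1), Acaca (97.8) and Srebf1 (90.4) followed, and their order changed from library to library. Acacb (34.6 FPKM), Mid1ip1 (23.9) and Mlxipl (23.7) had the lowest means over the 6, and the last pair did not differ beyond their spread. In each RAS library Acacb was number 7 of the 10, above Pnpla3. Pnpla3 was number 4, 3 and 3 of the 10 in controls 1, 2 and 3 and number 8 in every RAS library. Between 357 and 196515 reads stood behind each of these values, the fewest for Mid1ip1.

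**Figure D1:**
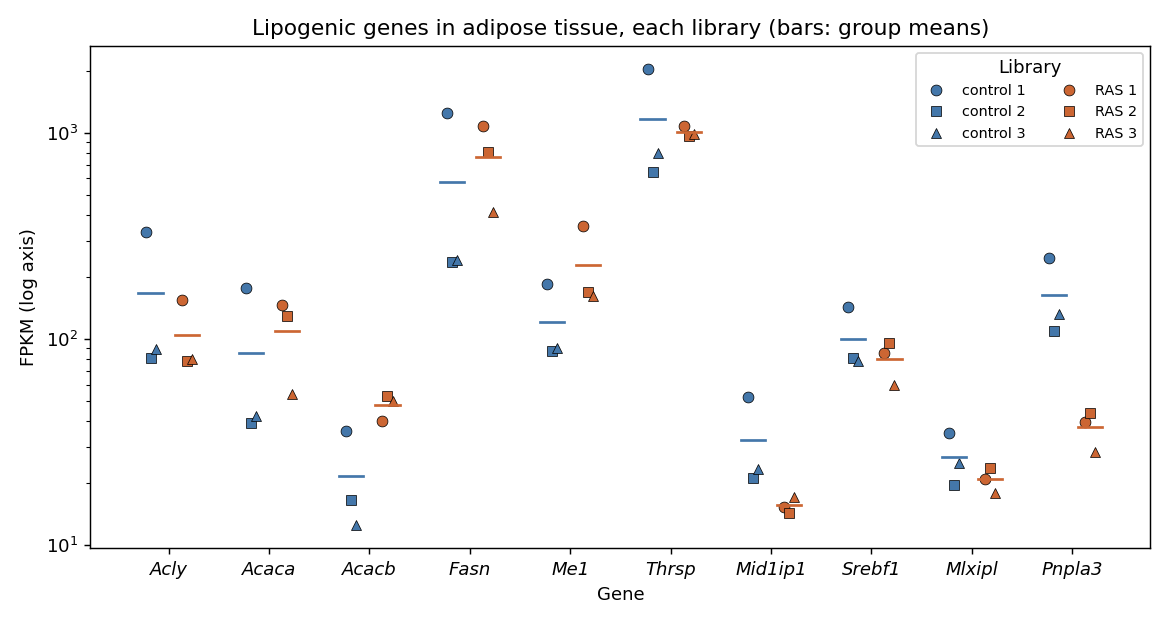
FPKM (log axis) of the 10 genes in each library, controls in blue and RAS in orange, with marker shapes for the sample number and bars for group means. Control 1 is the highest control for every gene, and the RAS points of Pnpla3 (28.4 to 43.7 FPKM) lie under all of its control points (109 to 247 FPKM).

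In the comparison of RAS with control, limma's test on log2(FPKM + 1) over 12606 genes called 0 genes at an adjusted p under 0.05 (0%, smallest adjusted p 0.138), while 1294 had an unadjusted p under 0.05 (10.3%). None of the 9 members tested passed, with adjusted p values from 0.338 for Acacb to 0.993 for Thrsp. The FPKM ranges did not overlap between groups for 3 of the 10 members, against 17.9% of all genes tested. Those on the lower side with RAS were Pnpla3 and Mid1ip1 (12.5% of all genes), and the one on the higher side was Acacb (5.42%). Since this contrast chose Pnpla3, nothing is read from that count. Of the 9 other members, 4 had a log2 difference above 0 and 5 below, against 43% of all genes above. Their median was -0.01, against -0.04 over all genes.

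Pnpla3 (NCBI gene 116939, chromosome 15, 84167816 to 84189521) lay at 247, 109 and 133 FPKM in controls 1, 2 and 3 and at 39.6, 43.7 and 28.4 FPKM in RAS 1, 2 and 3. All the RAS libraries were below all the controls, and control 1 was the highest. The mean was 163 ± 73.9 FPKM in control and 37.3 ± 7.93 FPKM with RAS (SD, n = 3 each, as for all means below), 4.37 times lower with RAS. In log2(FPKM + 1) units, in which changes of low genes come out too small, the difference (RAS minus control, as throughout) was -2.03 ± 0.32 (SE). With 1 library left out it ran from -2.27 (without control 2) to -1.69 (without control 1). The RAS values rested on 2543 to 3850 reads.

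The level of Pnpla3 relative to Fasn in the same library was 0.198, 0.460 and 0.550 in the controls and 0.0368, 0.0544 and 0.0691 in the RAS libraries. Among the controls both genes were highest in control 1, while in the RAS libraries Fasn stood above controls 2 and 3 and Pnpla3 below them. Against Pnpla2, the triglyceride lipase of the same patatin-like family, the ratio was 0.154 to 0.278 in control and 0.0249 to 0.0433 with RAS. These ratios rest on the same Pnpla3 values and are no further evidence.

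Among genes outside the set with a mean of at least 5 FPKM (8638 compared), the 5 whose centred log2 values were nearest to those of Pnpla3 over the 6 libraries were Oxtr, Creb3l1, Gm19494, Nrip1 and Dtx4. The measure was the root-mean-square difference, 0.48 to 0.53 log2 units. These genes were picked for likeness to Pnpla3, itself chosen for lower values with RAS. Their own lower values with RAS follow from that choice and are no further evidence. Oxtr, the oxytocin receptor, lay at 40.0, 41.8 and 56.4 FPKM in the controls and at 11.2, 18.5 and 9.36 FPKM with RAS. Nrip1, a nuclear receptor co-repressor of fat cells, lay at 28.7, 21.3 and 23.5 FPKM and at 13.2, 13.1 and 6.73 FPKM. Within the set, Mid1ip1 was the nearest to Pnpla3 (0.63) and Acacb the farthest (1.66).

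Acly (NCBI gene 104112, chromosome 11, 100476352 to 100528000), which supplies the acetyl-CoA, lay at 331, 80.6 and 89.1 FPKM in controls 1 to 3 and at 155, 78.5 and 80.0 FPKM in RAS 1 to 3. Control 1 and, less so, RAS 1 were high, and the other 4 libraries lay between 78.5 and 89.1 FPKM. The log2 difference was -0.43 ± 0.55 (95% interval -1.72 to 0.87, limma adjusted p = 0.806). With 1 library left out it ran from -0.79 (without control 2) to 0.22 (without control 1), so its sign rested on control 1.

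Me1 (NCBI gene 17436, chromosome 9, 86581363 to 86701253), which makes NADPH from malate, lay at 185, 87.3 and 90.8 FPKM in the controls and at 351, 169 and 162 FPKM with RAS. RAS 1 was the highest, and control 1 lay among the RAS libraries, so the groups overlapped. The means were 121 ± 55.5 and 227 ± 108 FPKM, a log2 difference of 0.90 ± 0.39 (95% interval -0.03 to 1.82, limma adjusted p = 0.493). It ran from 0.53 (without RAS 1) to 1.25 (without control 1). The table's locus of Me1 overlaps that of A330041J22Rik.

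Acetyl-CoA carboxylase has a pair of forms. ACC1 (Acaca) serves synthesis in the cytosol, and ACC2 (Acacb) sits at mitochondria, where its malonyl-CoA restrains entry of fatty acids for oxidation. Acaca (NCBI gene 107476, chromosome 11, 84195438 to 84401651) lay at 176, 39.0 and 42.4 FPKM in the controls and at 147, 129 and 54.3 FPKM with RAS. Control 1, RAS 1 and RAS 2 were high and the other libraries low, so the groups overlapped. The log2 difference was 0.60 ± 0.62 (95% interval -0.87 to 2.06, limma adjusted p = 0.761). It ran from 0.22 (without control 2) to 1.29 (without control 1).

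Acacb (NCBI gene 100705, chromosome 5, 114165518 to 114250758) lay at 35.6, 16.6 and 12.5 FPKM in the controls and at 40.1, 52.9 and 49.99 FPKM with RAS. Every RAS library was above every control, with control 1 nearest to them. The means were 21.5 ± 12.3 and 47.7 ± 6.69 FPKM, a log2 difference of 1.24 ± 0.35 (95% interval 0.42 to 2.05, limma adjusted p = 0.338). It ran from 0.93 (without control 3) to 1.65 (without control 1). The level of Acacb relative to Acaca was 0.202, 0.425 and 0.294 in the controls and 0.274, 0.411 and 0.921 with RAS: RAS 3 had nearly as much of one as of the other, and the remaining libraries overlapped.

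RAS 3 was also the library with the highest level of brown and beige fat markers. All 10 were in the table and 7 were tested. Their summed level was 998 FPKM in RAS 3, 160 and 226 FPKM in RAS 1 and 2, and 64.3 to 342 FPKM in the controls. All 7 had a positive log2 difference, against 43% of all genes tested. Their median was 1.05, and 0 passed the threshold over all genes. Without RAS 3, Ucp1 turned to -0.51 and Cox8b to -0.04, while the others stayed above 0. Ucp1 also turned to -0.38 without control 3. Dio2, Ppargc1a and Prdm16 lay under the minimum level, and of these only Prdm16 had a lower mean with RAS. Ucp1, the uncoupling protein, lay at 33.8, 13.9 and 0.034 FPKM in controls 1, 2 and 3 and at 4.90, 4.48 and 163 FPKM in RAS 1, 2 and 3. Cidea, which helps lipid droplets grow, lay at 42.4, 16.5 and 1.38 FPKM and at 46.8, 65.0 and 218 FPKM, so that each RAS library was above each control. Elovl3, a brown fat elongase, was also apart on the higher side, at 0.0294 to 0.219 FPKM in control and 0.525 to 13.8 FPKM with RAS. It passed the minimum level only through RAS 3. Of all genes, 5.42% were apart on this side. The Acacb difference was 1.20 without RAS 3. The part of brown or beige fat cells in the Acacb level was not tested.

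Fasn (NCBI gene 14104, chromosome 11, 120789202 to 120824547) lay at 1249, 237 and 241 FPKM in the controls and at 1076, 803 and 411 FPKM with RAS. Control 1 was the highest of all libraries and the other controls the lowest. The control SD (583 FPKM) exceeded the control mean (576 FPKM), and the RAS mean was 764 ± 334 FPKM. The log2 difference was 0.77 ± 0.68 (95% interval -0.82 to 2.36, limma adjusted p = 0.725). It ran from 0.37 (without control 2) to 1.56 (without control 1), and Fasn did not pass the threshold in any of these fits. The table's locus of Fasn also spans Dus1l and LOC100861787, and reads of overlapping genes may be mixed.

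The nearest genes to Fasn outside the set were Gpc1, Gm20155, Elovl6, Tkt and Gm10080 (root-mean-square difference 0.23 to 0.39 log2 units, 8638 genes compared). Elovl6, which lengthens the palmitate that Fasn makes, lay at 29.4, 5.33 and 4.91 FPKM in the controls and at 32.0, 20.9 and 16.7 FPKM with RAS. Tkt, the transketolase of the pentose phosphate pathway, lay at 444, 122 and 121 FPKM and at 418, 259 and 256 FPKM. Within the set, Acaca was closer to Fasn (0.16) than any of these, and Pnpla3 was the farthest (1.497).

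Thrsp (Spot 14) and Mid1ip1 (MIG12) are related small proteins, and Mid1ip1 is known to promote the polymer form of acetyl-CoA carboxylase. Thrsp (NCBI gene 21835, chromosome 7, 97412957 to 97417510) lay at 2043, 647 and 797 FPKM in the controls and at 1082, 969 and 983 FPKM with RAS. The RAS libraries lay close together, between control 1 and the other controls. The log2 difference was -0.01 ± 0.41 (95% interval -0.98 to 0.96, limma adjusted p = 0.993). It ran from -0.34 (without control 2) to 0.49 (without control 1), and it was 0.03 with median-ratio size factors.

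Mid1ip1 (NCBI gene 68041, chromosome X, 10717365 to 10719702) lay at 52.2, 21.1 and 23.5 FPKM in the controls and at 15.4, 14.3 and 17.1 FPKM with RAS. All the RAS libraries were below all the controls. The means were 32.3 ± 17.3 and 15.6 ± 1.45 FPKM, a log2 difference of -0.89 ± 0.32 (95% interval -1.63 to -0.14, limma adjusted p = 0.425). It ran from -1.13 (without control 2) to -0.49 (without control 1). It rested on 357 to 1431 reads per library, the least of the 10. Relative to Mid1ip1, Thrsp stood at 30.7 to 39.1 in the controls and at 57.3 to 70.5 with RAS. This ratio rests on the same Mid1ip1 values and is no further evidence.

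The estimated differences of the transcription factors were small beside their 95% intervals. Srebf1 (NCBI gene 20787, chromosome 11, 60105013 to 60220604) lay at 142, 81.0 and 78.1 FPKM in the controls and at 85.9, 95.4 and 59.7 FPKM with RAS. The groups overlapped, with control 1 at the top and RAS 3 at the bottom. The log2 difference was -0.29 ± 0.28 (95% interval -0.94 to 0.36, limma adjusted p = 0.742), and it ran from -0.44 (without control 3) to -0.01 (without control 1). The gene has several starts, its products SREBP-1a and SREBP-1c cannot be told apart in gene-level values, and its locus in the table also spans Rai1 and 4930412M03Rik.

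Mlxipl (NCBI gene 58805, chromosome 5, 135106891 to 135138382) lay at 35.1, 19.7 and 25.1 FPKM in the controls and at 20.9, 23.7 and 18.0 FPKM with RAS. The groups overlapped here as well. The log2 difference was -0.31 ± 0.21 (95% interval -0.81 to 0.19, limma adjusted p = 0.656), and it ran from -0.50 (without control 2) to -0.10 (without control 1). The table's locus begins at the downstream start of this gene. The upstream start, whose window held the E-box printed above, lies outside it.

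Control 1 set much of the spread within the controls. It was above both other controls for 10 of the 10 members, against 47.7% of the 12606 genes tested. It was at least 2 times both of them for 7 of 10, against 1.29% of genes, with the largest ratios for Fasn (5.18), Acaca (4.15) and Acly (3.72). Mlxipl had the smallest (1.40). The members belong to 1 pathway and are not independent, so this is a description of 1 library. Among the RAS libraries, RAS 3 was the lowest for 6 of 10, against 36.3% of genes.

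**Figure D2:**
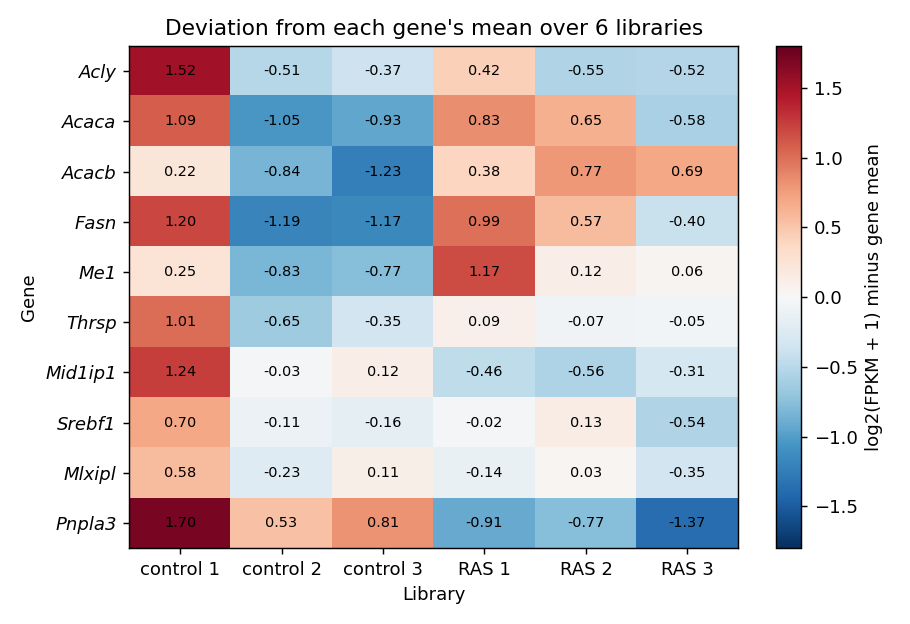
Deviation of log2(FPKM + 1) from each gene's own mean over the 6 libraries, one row per gene and one column per library, red above and blue below the mean. Control 1 is above the mean for all 10 genes (0.22 for Acacb to 1.70 for Pnpla3), while Acaca and Fasn are also high in RAS 1 and RAS 2, and Pnpla3 and Mid1ip1 are below the mean in every RAS library.

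**Figure D3:**
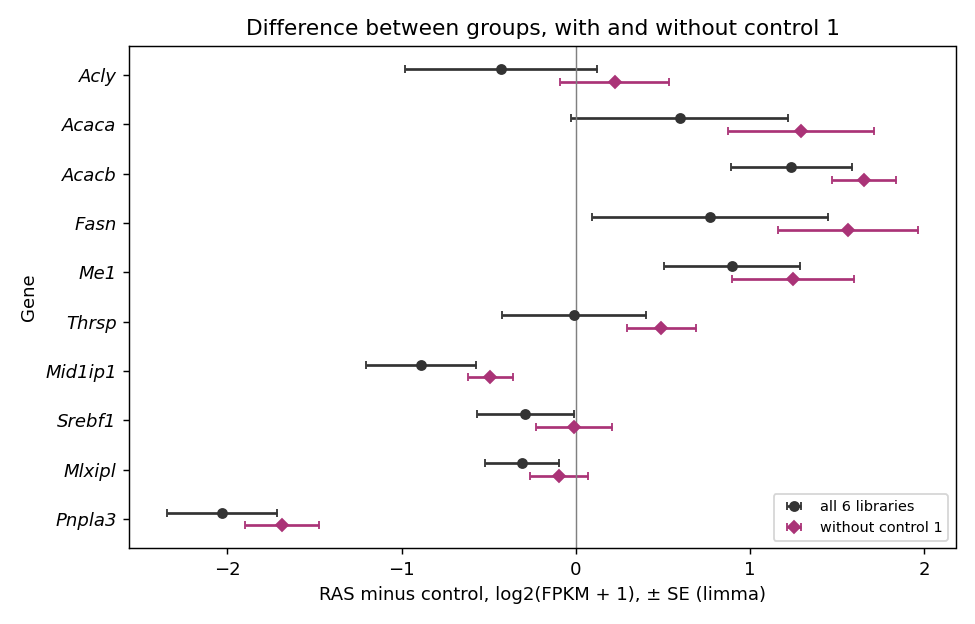
RAS minus control difference on the log2(FPKM + 1) scale with its SE from limma, with all 6 libraries (circles) and without control 1 (diamonds). Without control 1 the values of Acaca, Fasn, Me1 and Acacb move up (Fasn from 0.77 to 1.56), those of Srebf1 and Mlxipl move towards 0, and Pnpla3 stays near the lower end (-2.03 and -1.69).

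Markers of other cells differed between the controls too. Of 10 epithelial markers, 7 were in the table, and their sum was 5.95 FPKM in control 1, 47.9 and 52.8 FPKM in controls 2 and 3, and 19.5 to 36.7 FPKM in RAS. Most of it was Krt19, at 4.64 FPKM in control 1 and 15.0 to 40.7 FPKM elsewhere. Krt8 and Krt18 were also lowest in control 1, at 0.534 and 0.422 FPKM, against 2.63 to 7.27 and 1.71 to 4.31 FPKM elsewhere. The remaining genes of the list were low in every library. Epcam reached at most 0.993 FPKM, Krt5 0.414, Krt14 0.388 and the milk protein gene Lalba 0.196. A difference in epithelial cells is not read from this sum and was not tested. The 8 skeletal muscle markers summed to 207 FPKM in control 1, 136 and 70.3 FPKM in the other controls and 23.0 to 61.6 FPKM in RAS, nearly all Acta1. Tnni2, a defining muscle gene, was at 5.70 FPKM in control 1 and at most 0.521 FPKM elsewhere. Of 10 liver markers, 9 were in the table, with a sum of 182 FPKM in control 3 and 10.1 to 27.1 FPKM in the other libraries. Ttr, one of them, was at 8.17 FPKM in control 3 and at 0.056 FPKM in RAS 3, and it was listed at 0 in the other 4 libraries, control 1 included. The 7 macrophage markers in the table summed to 359 FPKM in control 1, 473 and 579 FPKM in the other controls and 445 to 571 FPKM in RAS. The part of these cells in the levels of the lipogenic genes was not tested.

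The neighbouring steps of the pathway were followed with 7 gene lists, none of which had a gene past the threshold over all genes. Of 12 genes that supply citrate, acetyl-CoA and NADPH, 10 were higher and 2 lower with RAS. Their median log2 difference was 0.28, against -0.04 over all genes. With 1 library left out it ran from 0.09 (without control 2) to 0.47 (without control 1). The groups were apart for 0 of the 12, against 17.9% of all genes. Slc25a1, the citrate carrier that brings citrate to Acly, lay at 231 ± 146 FPKM in control and 306 ± 56.7 FPKM with RAS. Its log2 difference was 0.56, and it ran from 0.28 (without control 2) to 1.04 (without control 1). Tkt lay at 229 ± 186 and 311 ± 92.7 FPKM (log2 0.69, from 0.38 without control 3 to 1.31 without control 1). Pgls, the lactonase of the pentose phosphate pathway, lay at 58.3 ± 7.71 and 72.9 ± 17.4 FPKM (log2 0.30). Control 1 was above both other controls for 12 of these 12 genes.

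The 12 genes of desaturation, elongation and esterification, which act after Fasn, were split 5 higher and 7 lower. Their median log2 difference was -0.02, and it ran from -0.16 (without control 2) to 0.21 (without control 1). Dgat1, which makes triglyceride, lay at 111 ± 18.2 FPKM in control and 159 ± 12.8 FPKM with RAS, with the groups apart (log2 0.53, limma adjusted p = 0.369). Acsl1, which activates fatty acids, lay at 439 ± 82.6 and 741 ± 214 FPKM (log2 0.73). Elovl6 lay at 13.2 ± 14.0 and 23.2 ± 7.93 FPKM (log2 1.16, from 0.75 without control 3 to 1.93 without control 1). The groups were apart for 2 of the 12 on the higher side, Dgat1 and Acsl1 (5.42% of all genes), and for 1 on the lower side (12.5%). Control 1 was above both other controls for 11 of the 12.

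Genes that process SREBP or work beside it were even, 8 higher and 8 lower of 16 (median log2 -0.03). Srebf2, the paralog of Srebf1 that serves cholesterol synthesis, lay at 11.3 ± 1.02 FPKM in control and 8.65 ± 1.32 FPKM with RAS (log2 -0.36, adjusted p = 0.432 in limma). Nfya and Nfyc, subunits of the factor that binds CCAAT boxes, had log2 differences of -0.27 and -0.24 (-0.12 for Nfyc without control 1). The groups were apart for 2 of the 16 on the lower side, Srebf2 and Nfya, where 12.5% of all genes were, and for 0 on the higher side (5.42% of all genes). Of 11 tested genes of the cholesterol branch, 10 were lower and 1, Fdft1 (named after its value was seen), was higher. Their median of -0.43 was -0.14 without control 1. Cyp51 lay at 7.34 ± 2.79 and 3.99 ± 0.551 FPKM (log2 -0.70, and -0.44 without control 1), Sqle at 5.34 ± 2.22 and 3.09 ± 0.483 FPKM (log2 -0.58, and -0.32 without control 1) and Stard4, a sterol transfer protein, at 3.31 ± 0.491 and 2.49 ± 0.142 FPKM (log2 -0.30). Of the 11, these 3 were apart on the lower side (12.5% of all genes) and 1, Fdft1, on the higher side (5.42%).

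Of 8 tested partners and targets of ChREBP, 5 were higher and 3 lower (median log2 0.07). Txnip, a glucose-induced target, lay at 634 ± 181 FPKM in control and 885 ± 215 FPKM with RAS (log2 0.50, and 0.24 without control 1). Mlx, the dimer partner of ChREBP, lay at 13.8 ± 3.35 and 11.1 ± 0.302 FPKM (log2 -0.26, and -0.08 without control 1), and the paralog Mlxip at 12.4 ± 1.90 and 10.8 ± 1.64 FPKM (log2 -0.19). The groups were apart for 1 of the 8, Mlx, on the lower side (12.5% of all genes) and for 0 on the higher side (5.42%). Pklr was under the minimum level, and Tkfc was not analysed here.

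Among 12 genes that control acetyl-CoA carboxylase or answer to malonyl-CoA, 4 were higher and 8 lower (median log2 -0.05). Trib3, a pseudokinase known to direct the carboxylase to degradation, lay at 3.36 ± 0.279 FPKM in control and 5.34 ± 0.760 FPKM with RAS, with the groups apart (log2 0.53 ± 0.13, limma adjusted p = 0.283). The AMPK beta subunits Prkab2 and Prkab1, of the kinase that shuts the carboxylase off, lay at 10.1 ± 1.20 and 7.57 ± 0.504 FPKM (log2 -0.37) and at 9.56 ± 0.784 and 7.78 ± 0.0967 FPKM (log2 -0.26). The groups were apart for 1 of the 12 on the higher side, Trib3 (5.42% of all genes). On the lower side they were apart for 3, Prkab2 and Prkab1 among them (12.5% of all genes).

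In the PNPLA family and its co-factors, 6 of 8 genes were tested, since Pnpla1 and Pnpla5 lay under the minimum, and 4 were higher and 2 lower (median log2 0.14). Pnpla2 lay at 889, 708 and 706 FPKM in the controls and at 915, 1024 and 1140 FPKM with RAS, apart and on the opposite side to Pnpla3 (log2 0.42 ± 0.19, limma adjusted p = 0.504). Pnpla7, a lysophospholipase, lay at 7.01 ± 1.56 and 9.60 ± 1.90 FPKM (log2 0.41, and 0.24 without control 1), and G0s2, the inhibitor of Pnpla2, at 95.4 ± 37.1 and 71.0 ± 16.1 FPKM (log2 -0.38, and -0.08 without control 1). The groups were apart for 2 of the 6 on the higher side, Pnpla2 and Pnpla7 (5.42% of all genes), and for 0 on the lower side (12.5%).

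**Figure D4:**
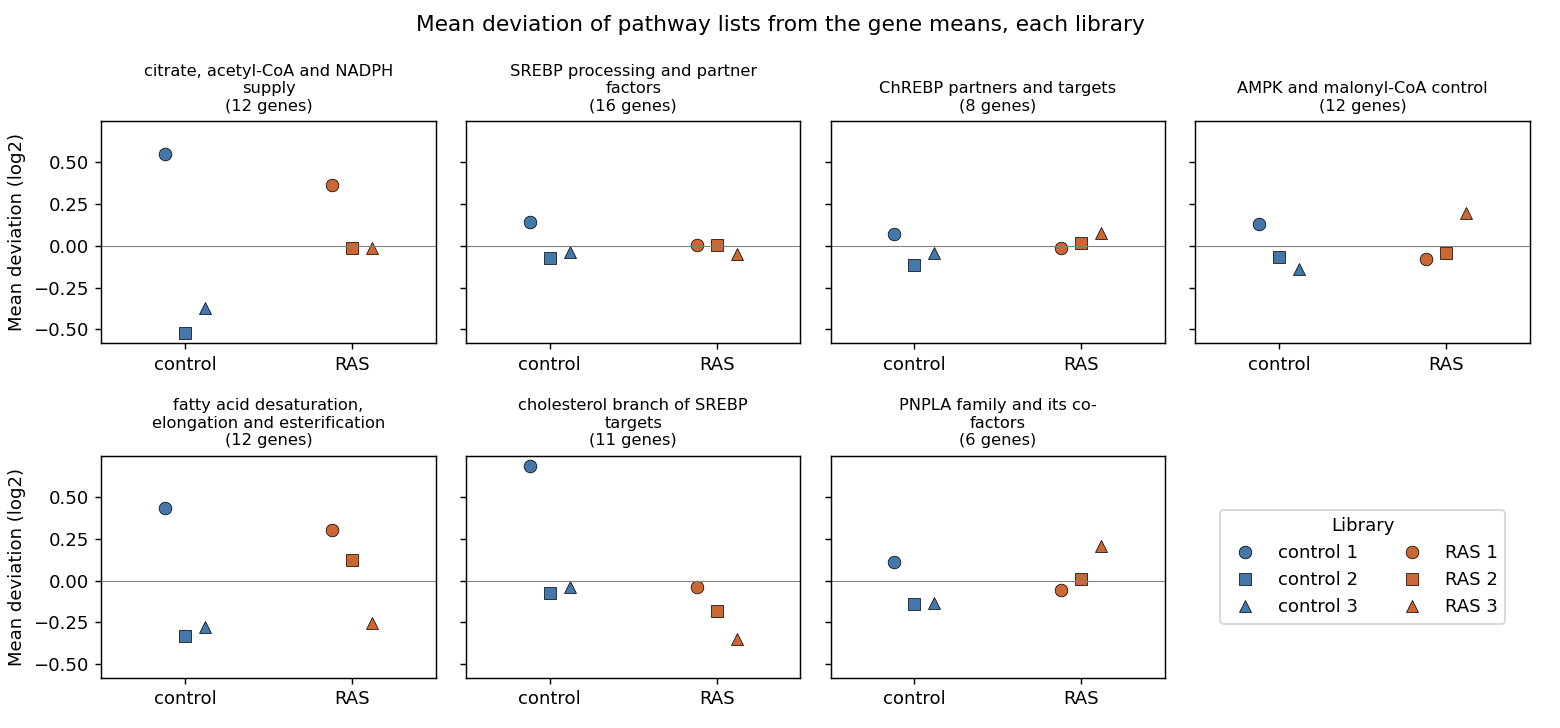
Mean deviation from the gene means (log2 units) of the tested genes of 7 pathway lists, one point per library, controls in blue and RAS in orange. Control 1 is the highest library for the supply list (0.55), the desaturation and esterification list (0.43), the cholesterol list (0.69) and the SREBP list (0.14). It lies between 0.07 and 0.13 for the ChREBP, PNPLA and AMPK lists, in which RAS 3 is the highest.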

How the data were processed

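The FPKM values of each sample entered as deposited by the authors. Per the submitters' processing notes, TopHat2 2.0.9 and Cufflinks 2.1.1 were among the tools. Build, annotation and filters were not given in the sources used here. Columns bearing the group name of the treatment protocol were taken as RAS and the other numbered set as control, by elimination, and 4 columns were not used. Loci overlapped the GRCm38 gene of the same identifier for 99.67% of 18403, with starts 1 base below RefSeq for 8369 of 18819, so 1 was added. The labels name no strand-specific step.

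A count signal per gene, deposited by the authors after scaling, gave the reads: 99.1 to 99.2% of values up to 200 reads were whole multiples, within 0.02, of 1 value per library. No count model was run.

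Genes averaging at least 1 FPKM were tested with limma 3.58.1 (R 4.3.3; lmFit, eBayes with trend) on log2(FPKM + 1), two-sided, adjusted by Benjamini-Hochberg over all genes, threshold 0.05. The script was tested on simulated data. Members and lists were chosen with earlier results of these data known. Named genes are the members, the 3 smallest unadjusted p of each list, the 5 genes nearest to Pnpla3 and to Fasn, and markers. Lists are described by counts and medians, without a test. Planned protein comparisons are not reported. Alternatives were the pseudocount (0.1), the minimum (none or 5), quantile or median-ratio scaling, a block for the replicate number, and leaving out single libraries. Those chosen after seeing the data were the count signal in place of FPKM and the omission of both control 1 and RAS 3.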

Additional observations from a re-analysis of the deposited data

How the results depend on the processing

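The count of genes past the threshold was 0 under each alternative that kept all 6 libraries, including the replicate block (0 of 12606 genes, 1663 at an unadjusted p under 0.05). With 1 library left out it ran from 0 to 2: Gm19601 and Gm6293 without control 1, H2-T9 without RAS 1 and Cd1d2 without RAS 2, none of them a member. With control 1 and RAS 3 left out together it was 3. The labels give no pairing beyond the replicate numbers. Deviations of same-numbered samples correlated at 0.18, 0.096 and 0.22, and those of different-numbered samples at -0.17 to 0.011. Each library thus correlated best with its own number, and whether same-numbered samples share an origin was not tested.

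None of the 9 tested members passed in any of the 14 alternatives. Directions of Pnpla3 (-2.27 to -1.51), Mid1ip1 (-1.13 to -0.49), Acacb (0.93 to 1.65), Me1 (0.53 to 1.44), Fasn (0.37 to 1.95) and Acaca (0.22 to 1.73) held in all 14. For Pnpla3, Mid1ip1 and Acacb, whose ranges were apart, leaving out libraries could not change the direction. Pnpla3 was also chosen by its direction, so nothing is read from its holding. Thrsp lay between -0.34 and 0.49 with single libraries left out, and Acly between -0.79 and 0.22. Thrsp turned to 0.034 with median-ratio size factors, 0.49 without control 1, 0.019 without RAS 2, 0.0089 without RAS 3 and 0.51 without control 1 and RAS 3. Acly turned to 0.22 without control 1 and 0.38 without both, where Srebf1 turned to 0.18 and Mlxipl to 0.0016. The ranges given here are the lowest and highest estimates over the fits and are not confidence intervals. With 3 samples a group, a difference that did not pass may still be present, and the smallest detectable difference was not calculated.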
